A study of Mus musculus with 6 samples.

Results

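Immunoglobulin genes were examined in RNA sequencing libraries made from mouse liver natural killer (NK) cells. They were selected on their summed reads: the genes were the rows of the deposited table whose gene type is an immunoglobulin type other than a pseudogene and whose estimated counts over the 6 libraries sum to at least 30. This rule kept 190 of 268 such rows, out of 55414 rows in the table: 11 constant region genes, 175 variable (V) genes and 4 joining (J) genes, with 101 in the heavy chain locus (IGH) on chromosome 12, 83 in the kappa locus (IGK) on chromosome 6 and 6 in the lambda locus (IGL) on chromosome 16. The summed count is given as a description, with no test. At the edge of the rule, Ighv9-1, Ighv1-56 and Ighv5-2 were just inside with sums of 34.0, 34.8 and 36.0, and Igkv4-62, Igkv4-92 and Ighv1-67 just outside with 29.2, 27.0 and 24.0. Of the 78 rows left out, 39 had no read in any library. No diversity (D) gene passed.

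Immunoglobulin genes are assembled by recombination of V, D and J segments in B cells, and the assembled V region is spliced to a constant region that sets the isotype: Ighm for IgM, Ighd for IgD, Igha for IgA and the Ighg genes for IgG. Naive B cells carry IgM and IgD on the surface, whereas plasma cells, their antibody-secreting descendants, hold very large amounts of immunoglobulin RNA. NK cells, which belong to the innate lymphoid cells, do not make antibody.

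The comparison was between 3 libraries from control mice given phosphate-buffered saline (PBS) and 3 from metformin-treated mice (200 mg per kg over 3 days), all labelled day 3. Metformin is a drug that lowers blood glucose. All the mice are labelled wild type; sex, age and the gate used to isolate the cells are not stated in the sources at hand. Series of 3 values follow the order of replicates 1, 2 and 3, which are names only. The labels do not state whether each library is a different animal. The p-values thus reflect the spread among the samples at hand, part or all of which may be technical.

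Libraries held 22152167 to 30161214 estimated counts; each metformin library had fewer than any PBS library. NK cell genes were high in all 6: Ncr1, the NK receptor NKp46, lay between 1465 and 1766 TPM (a level per unit of gene length, scaled to one total in each library), and 15 NK genes summed to 24756 to 30460 CPM (counts relative to library size, scaled by edgeR's TMM factors). The sum of 15 T cell markers was 916 to 1078 CPM with PBS and 1475 to 1752 CPM with metformin. Much of it was Cd3g (283 to 336 CPM with PBS and 474 to 688 CPM with metformin), Trbc1 and Trbc2. At lower levels Cd3d, Cd3e and Cd8a did not overlap between the groups either, whereas Cd5, Cd6, Cd8b1 and Themis did. Metformin 3 had the highest sum of 18 hepatocyte markers (729 CPM, against 261 to 412 CPM in the other 5 libraries).

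Several of these genes are near copies of each other, which limits how far a read can be assigned to 1 row. The coding sequences of the lambda genes are shown for this reason, from GENCODE M21 transcripts, 5′ to 3′, bases 1 to 300 of each coding sequence. Capitals in Iglc3 and Iglc1 mark bases that differ from Iglc2 or have no partner in it, and capitals in Iglv2 mark bases that differ from Iglv1.
Iglc2: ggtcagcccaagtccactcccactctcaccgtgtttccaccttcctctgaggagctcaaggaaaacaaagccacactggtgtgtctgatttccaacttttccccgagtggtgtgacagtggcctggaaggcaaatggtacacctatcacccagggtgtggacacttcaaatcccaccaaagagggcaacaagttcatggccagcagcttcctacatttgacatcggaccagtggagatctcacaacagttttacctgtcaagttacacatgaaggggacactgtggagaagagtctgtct
Iglc3: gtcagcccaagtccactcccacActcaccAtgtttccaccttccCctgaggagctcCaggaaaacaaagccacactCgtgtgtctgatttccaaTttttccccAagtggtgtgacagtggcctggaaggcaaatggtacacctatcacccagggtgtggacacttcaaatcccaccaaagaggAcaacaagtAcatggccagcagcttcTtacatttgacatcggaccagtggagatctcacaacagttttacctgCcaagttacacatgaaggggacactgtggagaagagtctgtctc
Iglc1: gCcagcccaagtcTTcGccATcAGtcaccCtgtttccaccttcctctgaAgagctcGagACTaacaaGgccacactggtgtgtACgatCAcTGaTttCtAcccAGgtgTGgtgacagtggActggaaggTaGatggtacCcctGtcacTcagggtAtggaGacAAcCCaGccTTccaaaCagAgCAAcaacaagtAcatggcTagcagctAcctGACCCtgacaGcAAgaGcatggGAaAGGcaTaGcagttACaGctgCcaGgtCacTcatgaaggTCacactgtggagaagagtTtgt
Iglv1: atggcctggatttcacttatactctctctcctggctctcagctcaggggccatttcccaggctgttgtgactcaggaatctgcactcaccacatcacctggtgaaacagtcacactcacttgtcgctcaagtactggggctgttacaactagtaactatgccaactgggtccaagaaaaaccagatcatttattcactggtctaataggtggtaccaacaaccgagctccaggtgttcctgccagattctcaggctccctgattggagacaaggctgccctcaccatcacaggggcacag
Iglv2: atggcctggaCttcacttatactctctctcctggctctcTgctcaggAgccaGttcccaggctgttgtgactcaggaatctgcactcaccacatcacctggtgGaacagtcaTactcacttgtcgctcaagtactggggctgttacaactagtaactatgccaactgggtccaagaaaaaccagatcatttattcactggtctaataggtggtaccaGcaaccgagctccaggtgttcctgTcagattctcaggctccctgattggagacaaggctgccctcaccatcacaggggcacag
Iglc3 differed from Iglc2 at 11 of 314 aligned bases (96.5% identity), whereas Iglc1 differed from Iglc2 at 79 of 313 (74.8% identity). Iglv1 and Iglv2 differed at 11 of 351 bases (96.9% identity). The deposited counts of Iglc1 were whole numbers in every library, and those of Iglc2 and Iglc3 were whole only in PBS 1; a count that is not whole is an estimate in which reads were divided between rows. Among the 175 V genes, 84 had another V gene of the list at 95% identity or more, and 82 of these had a count that was not whole in at least 1 library, against 49 of the 91 V genes without so close a relative. The values of single V genes, Iglc2, Iglc3, Ighg2b and Ighg2c (87.8% identity between the last pair) are therefore uncertain.

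Immunoglobulin reads were present in every library and varied about as much within each group as between the groups. Their part of all estimated counts was 0.457% in PBS 1, 0.192% in PBS 2 and 0.115% in PBS 3. It was 1.04% in metformin 1, 0.485% in metformin 2 and 0.266% in metformin 3. The mean was 0.255% ± 0.179 with PBS and 0.597% ± 0.399 with metformin (SD, n = 3 each), and the groups overlapped, since PBS 1 lay above metformin 3 and close to metformin 2. The highest library was 3.97 times the lowest within the PBS group and 3.91 times the lowest within the metformin group. The log2 ratio of the group means was 1.23, and 0.56 without metformin 1. By TPM, which weights short genes such as V segments more, the share was 0.466% to 2.28% with PBS and 1.04% to 4.89% with metformin. No test was made of this sum, whose members were chosen with results of these data known. In bulk RNA, more cells of a type and more RNA per cell cannot be told apart.

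**Figure D1:**
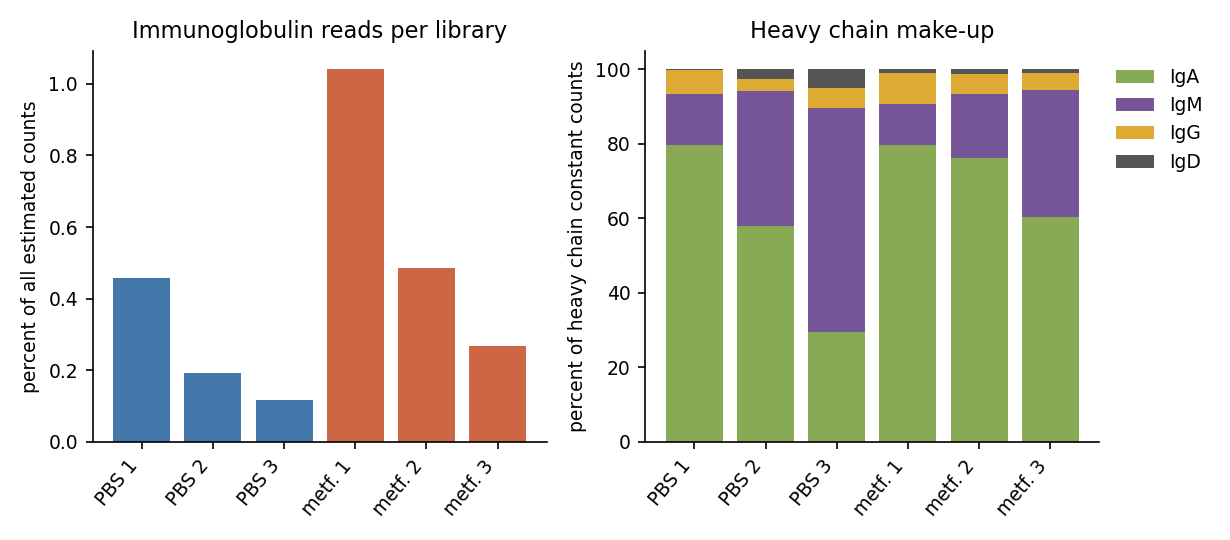
Left, immunoglobulin reads as a percent of all estimated counts in each library, PBS in blue and metformin in orange (metf.). Right, the share of each isotype among heavy chain constant region counts; IgA takes 29.5% in PBS 3 and 58.0% to 79.8% in the other 5 libraries.

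IgA was the leading isotype in 5 of 6 libraries. Its constant region gene Igha (ENSMUSG00000095079.7, chromosome 12, 113218450 to 113223856, minus strand, as the table gives it) had 79.8%, 58.0% and 29.5% of heavy chain constant counts in the PBS libraries, against 79.6%, 76.2% and 60.3% in metformin 1, 2 and 3. PBS 3 was the exception, with 60.2% IgM. Igha stood at 1830, 656 and 210 CPM with PBS and 3904, 1821 and 822 CPM with metformin, so that metformin 3 lay below PBS 1. Its log2 fold change, metformin against PBS, was 1.28 (standard error, SE, 0.76; edgeR adjusted p = 0.578).

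Ighm (ENSMUSG00000076617.10, chromosome 12, 113382178 to 113386350, minus strand), the IgM constant region, was the steadiest of the 11 constant region genes. It measured 313, 410 and 429 CPM with PBS and 551, 410 and 466 CPM with metformin, and its TPM differed by 1.63 times between the highest and the lowest library, against 16.3 times for Igha. The log2 fold change of Ighm was 0.31 (SE 0.15; edgeR adjusted p = 0.523). IgM held 13.6% to 60.2% of heavy chain constant counts with PBS and 11.2% to 34.2% with metformin. On the scale per length (TPM), the ratio of Igha to Ighm was 9.85, 2.76 and 0.837 in the PBS libraries and 11.8, 7.49 and 2.95 in metformin 1, 2 and 3.

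Ighd, the IgD constant region that naive B cells co-express with IgM, followed another order. It was lowest in PBS 1, at 5.01 CPM, and stood at 29.9 and 36.5 CPM in PBS 2 and 3 and at 48.2, 28.8 and 11.5 CPM in metformin 1, 2 and 3. Thus PBS 1, which had more Igha than either other PBS library, had less Ighd than both. The log2 fold change of Ighd was 0.31 (SE 0.69; edgeR adjusted p = 0.889), and it was -0.18 without PBS 1 and -0.25 without metformin 1.

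The IgG genes together took 3.13% to 6.36% of heavy chain constant counts with PBS and 4.60% to 8.22% with metformin. Ighg2b measured 57.2, 18.8 and 14.3 CPM with PBS and 195, 57.9 and 31.1 CPM with metformin. Ighg2c, another IgG subclass gene, measured 67.9, 8.58 and 15.1 CPM and 169, 60.2 and 25.7 CPM. These IgG genes were highest in metformin 1 and overlapped between the groups, as did Ighg1 (0.890 to 8.98 CPM under PBS and 4.73 to 21.5 CPM with metformin). Ighg3 kept another order, with 11.7, 1.48 and 6.40 CPM with PBS and 17.8, 2.04 and 1.14 CPM with metformin. The log2 fold changes of Ighg2b, Ighg2c, Ighg1 and Ighg3 were 1.65 (SE 0.73), 1.47 (SE 0.85), 1.12 (SE 0.78) and 0.10 (SE 1.02), and none passed (edgeR adjusted p = 0.478 to 0.980). The IgE gene Ighe was not among the members: its 23 reads were 21 in metformin 2 and 2 in metformin 3. Iglc4, the other constant region gene left out, had 0 reads in all 6 libraries, and 3 reads, the number that a count of 0 still allows, are 0.0995 to 0.135 CPM (counting error only).

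Light chains were mostly kappa. Igkc (ENSMUSG00000076609.3, chromosome 6, 70703419 to 70703950, plus strand), the only kappa constant region gene, held 91.0%, 87.7% and 86.0% of light chain constant counts in the PBS libraries, against 86.3%, 90.8% and 92.2% in metformin 1, 2 and 3. The means, 88.2% ± 2.57 and 89.8% ± 3.10 (SD, n = 3), differed by less than the spread within either group. Counted by V genes instead, the kappa share was 90.0% ± 2.10 with PBS and 88.1% ± 4.36 with metformin, so the sign of this small difference depended on which genes were counted. Igkc itself measured 961, 342 and 183 CPM with PBS and 2205, 1056 and 549 CPM with metformin. The change of Igkc was 1.36 on the log2 scale (SE 0.65), with an edgeR adjusted p of 0.507.

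The lambda constant genes did not vary alike. Iglc1 measured 52.8, 17.6 and 3.43 CPM with PBS and 230, 76.0 and 12.3 CPM with metformin, and its TPM spanned 55.4 times over the 6 libraries, the widest range of the constant region genes. Iglc2, which had 36.0, 21.7 and 17.6 CPM with PBS and 61.3, 17.4 and 18.6 CPM with metformin, spanned 3.36 times. Iglc1 therefore held 55.8%, 36.7% and 11.5% of lambda constant counts in the PBS libraries and 65.4%, 71.3% and 26.4% in the metformin libraries. Iglc3, the near copy of Iglc2 shown above, was the 1 constant region gene whose groups did not overlap, with 5.85, 8.74 and 8.83 CPM with PBS and 60.1, 13.3 and 15.7 CPM with metformin (log2 fold change 1.93, SE 0.56; edgeR adjusted p = 0.343). The log2 fold change of Iglc1 was 2.11 (SE 1.08; edgeR adjusted p = 0.531) and that of Iglc2 was 0.37 (SE 0.50), or -0.48 without metformin 1.

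Genes of antibody-secreting cells and of B cells were read beside the constant region genes; the pairs named here were chosen after their values were seen. Jchain, which encodes the joining chain of secreted IgA and IgM, stood at 391, 127 and 47.3 CPM in the PBS libraries and at 675, 363 and 172 CPM in metformin 1, 2 and 3, the same order of libraries as Igha. The ratio of Igha to Jchain in TPM stayed between 4.80 and 6.03 in the 6 libraries, while each gene alone varied 16.3 and 13.0 times. Mzb1, a chaperone of immunoglobulin assembly, measured 20.4, 5.50 and 4.78 CPM with PBS and 42.9, 17.3 and 9.82 CPM with metformin. Like Igha and Jchain it was highest in metformin 1 and lowest in PBS 3. Some other genes of the plasma cell list shared this, such as Derl3, and others did not. Prdm1 measured 104, 110 and 110 CPM with PBS and 104, 98.0 and 58.2 CPM with metformin. Irf4 was lowest in metformin 3, at 2.19 CPM, and 8.27 to 9.59 CPM elsewhere. The log2 fold changes of Prdm1 and Irf4 were -0.32 and -0.36. Cd79a, a signalling part of the B cell receptor complex, was ordered as Ighd was, not as Igha was: it measured 6.11, 34.0 and 40.2 CPM in the PBS libraries, against 63.1, 33.3 and 16.6 CPM in metformin 1, 2 and 3. The ratio of Ighd to Cd79a in TPM stayed between 0.518 and 0.678. Low levels in PBS 1 and metformin 3 were not particular to B cell genes. The T cell gene Cd6 was also lowest in PBS 1 (0.258 CPM) and next lowest in metformin 3 (2.54 CPM). So was Siglech, a plasmacytoid dendritic cell marker (1.91 and 3.72 CPM). The T cell genes Trac, Cd5, Cd8b1 and Themis shared this too. Others of the T cell list did not, such as Cd3g, which was highest in metformin 3 (688 CPM). Cd3g stood at 283 to 688 CPM over the libraries, against 13.3 to 51.1 CPM for Cd3d. In PBS 1 Pax5, the transcription factor of B cell identity, was at 0 CPM, whereas in the other 5 libraries it lay at 0.920 to 4.51 CPM. Ighm kept to neither ratio: in TPM it exceeded Ighd by 72.3 times in PBS 1 and 46.8 times in metformin 3, and by 12.8 to 16.3 times in the other 4 libraries. These points share a library and its depth, so they describe 6 libraries and carry no p.

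**Figure D2:**
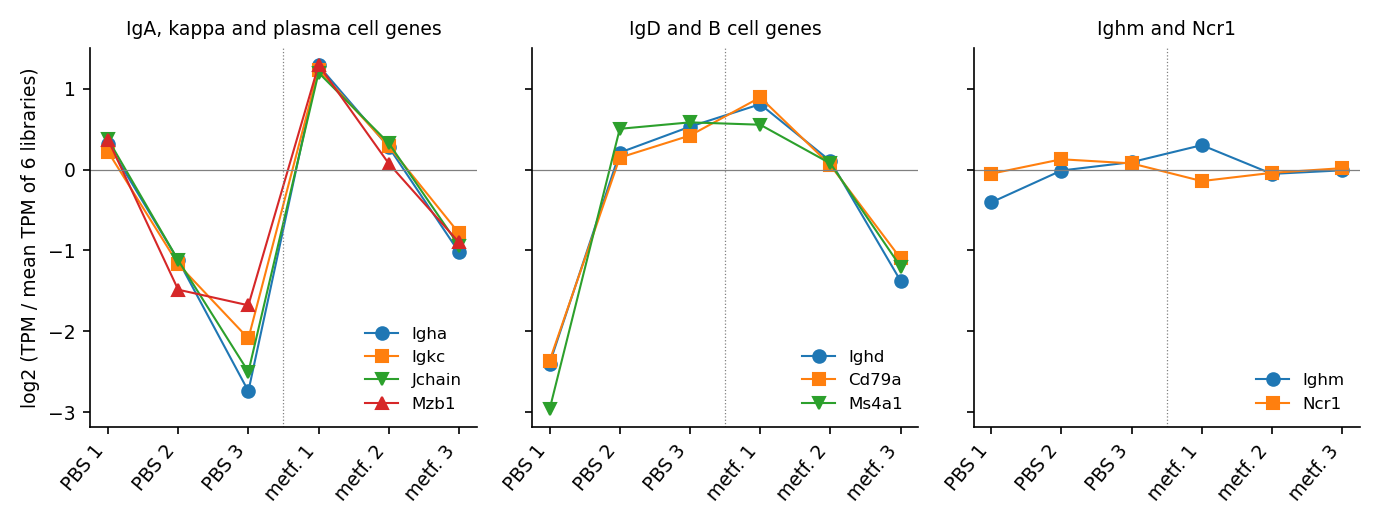
Level of each gene in each library, as the log2 ratio of its TPM to its mean TPM over the 6 libraries, with lines joining the libraries only to guide the eye. Igha, Jchain and Mzb1 share an order, and Igkc differs from it only in that metformin 2 lies above PBS 1 (left), Ighd, like the B cell genes Cd79a and Ms4a1, is lowest in PBS 1 and next lowest in metformin 3 (middle), and Ighm differs by 1.63 times between its highest and lowest library (right, with Ncr1 as the NK gene).

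In the sums of the plasma cell and B cell lists the groups overlapped as well. The sum of 20 plasma cell genes was 1608 to 2095 CPM with PBS and 1961 to 2750 CPM with metformin, and none of its genes was at 0 in all libraries. Its highest genes by mean CPM were Slamf7, Herpud1, Xbp1, Txndc5, Sec11c and Jchain. Of these Slamf7 is also a receptor of NK cells. Within the PBS group Jchain varied 8.26 times and the others 1.09 to 1.25 times. The sum thus does not measure plasma cells alone. Of its 20 genes 0 passed edgeR over all genes (smallest adjusted p = 0.245, for Creld2). The log2 fold change was above 0 in 16 (50.9% of all genes tested), and the median was 0.36. At an unadjusted p under 0.05 edgeR gave 3 of the 20 higher and 0 lower (5.29% and 5.08% of all genes tested). The groups did not overlap in Creld2 (72.0 to 81.7 CPM with PBS and 100 to 109 CPM with metformin), Xbp1, Slamf7, Herpud1 and Edem2, and overlapped in the others. Xbp1, the transcription factor of the secretory programme, measured 253, 234 and 203 CPM with PBS and 375, 297 and 270 CPM with metformin (log2 fold change 0.45, SE 0.14; edgeR adjusted p = 0.387), and Sdc1, the plasma cell surface proteoglycan CD138, 4.15 to 9.39 CPM and 4.29 to 8.14 CPM. The sum of 24 B cell genes was 425 to 728 CPM with PBS and 625 to 858 CPM with metformin, with 0 of 24 past the test and a median of 0.25; Cd37, a leukocyte tetraspanin, gave 336 to 381 CPM of it with PBS and 366 to 465 CPM with metformin. The part of either cell type in the immunoglobulin share was not tested.

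V genes held 19.1% to 26.7% of the immunoglobulin counts with PBS and 24.1% to 28.6% with metformin. Heavy chain V genes took 31.1% to 36.8% of V counts over the 6 libraries, kappa V genes 53.6% to 63.6% and lambda V genes 5.24% to 10.7%. Of the 175 V genes, 145 had at least 1 count in every library and 80 at least 10 counts in every library. Reads were thus spread over many V genes in all 6 libraries rather than held by a few.

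V genes detected were counted with all reads and at an equal number of V reads, since libraries held 6623 to 68297 V counts, in an order other than that of their total counts. With all reads 151, 125 and 102 V genes had at least 10 counts in the PBS libraries, against 170, 153 and 123 in metformin 1, 2 and 3. When every library was brought by calculation to the 6623 V reads of PBS 3, the numbers were 116, 107 and 102 with PBS and 111, 107 and 98.3 with metformin. The means, 126 ± 24.5 and 149 ± 23.8 with all reads, became 108 ± 7.08 and 106 ± 6.55 at the common number of V reads (SD, n = 3), and the sign of the difference turned. The effective number of V genes, the exponential of the Shannon entropy of their counts, was 91.1, 79.3 and 81.6 with PBS and 84.1, 80.5 and 72.7 with metformin. The 10 leading V genes of a library held 29.0% to 33.4% of its V counts with PBS and 32.6% to 35.5% with metformin. By the inverse Simpson index, which weights leading genes more, the groups did not overlap (51.7 to 62.3 with PBS, 46.8 to 50.4 with metformin).

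**Figure D3:**
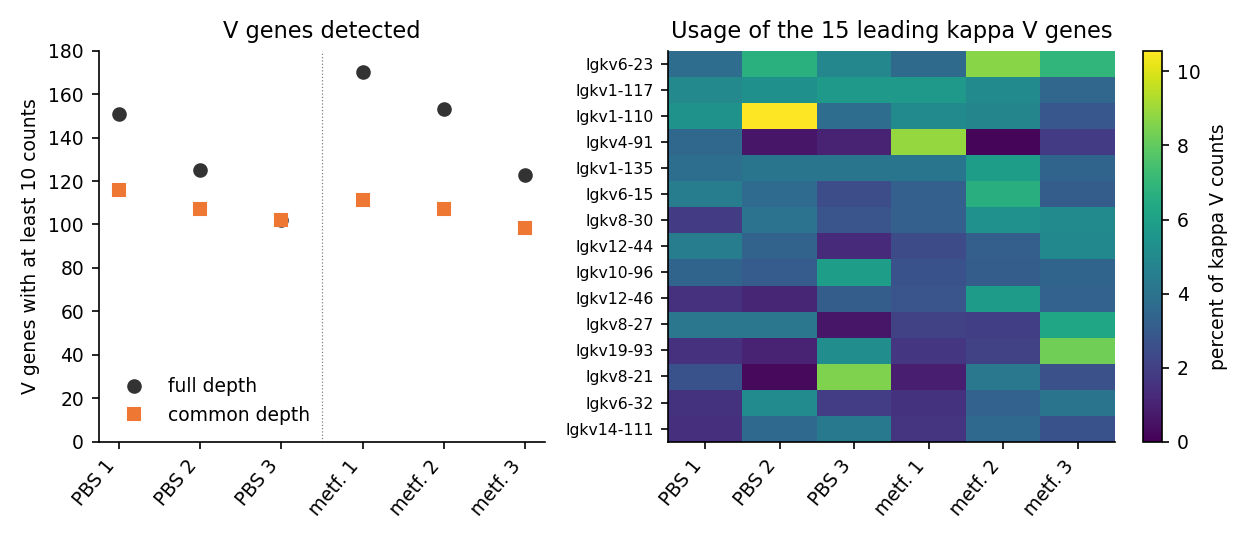
Left, number of V genes with at least 10 counts in each library, with all reads (circles, full depth) and brought to a common number of V reads (squares, 98.3 to 116). Right, share of kappa V counts held by each of the 15 kappa V genes with the most counts; single libraries stand out, such as metformin 1 for Igkv4-91 at 8.90%.

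The leading V genes differed from library to library. Igkv4-91 held 8.90% of kappa V counts in metformin 1 and 0.162% to 3.56% in the other 5 libraries, and 77.7% of all its reads came from metformin 1. The deposited counts of Igkv4-91 were whole in every library, and its coding sequence is shown for this reason. The nearest V gene of the list, Igkv4-79, has 87.2% identity to it.
Igkv4-91: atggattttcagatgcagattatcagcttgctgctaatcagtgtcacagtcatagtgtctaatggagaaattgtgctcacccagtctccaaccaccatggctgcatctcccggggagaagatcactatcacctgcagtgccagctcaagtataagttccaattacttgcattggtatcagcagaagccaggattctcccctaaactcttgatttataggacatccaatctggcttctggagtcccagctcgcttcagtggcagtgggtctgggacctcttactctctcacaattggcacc
Among heavy chain V genes, Ighv10-3 led in PBS 1 with 9.17% of heavy chain V counts, and Ighv1-59 was at 6.23% in metformin 1 and at 0.448% to 3.18% elsewhere. Igkv8-21 led the kappa genes in PBS 3 (8.52%) and Igkv19-93 in metformin 3 (8.26%). Ighv1-64 was the leading heavy chain V gene in 4 libraries, PBS 2 and all 3 metformin libraries. In 59 of the 175 V genes more than 50% of the reads came from 1 library. Any pair of libraries shared 62.7% to 75.3% of their V profile (the summed smaller share of each V gene). Pairs within a group shared a median of 65.8% (6 pairs) and pairs across groups 66.9% (9 pairs).

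By family, the large Ighv1 family took 50.9% to 64.1% of heavy chain V counts with PBS and 61.0% to 62.3% with metformin. The Igkv4 family varied most among the large kappa families with metformin, from 6.51% in metformin 2 to 24.4% in metformin 1, against 12.0% to 15.6% with PBS. The 30 heavy chain V genes farthest from the J segments, 1638 to 2570 kb from Ighj1 in the table's coordinates, held 41.4% to 48.1% of heavy chain V counts with PBS and 41.6% to 50.1% with metformin. The 30 nearest held 18.9% to 31.1% and 22.4% to 26.7%. Use along the locus thus overlapped between the groups.

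In 6 of the 33 V families (18.2%) the shares did not overlap between the groups, and these were picked out after their values were seen. Among all genes tested, the CPM of the groups did not overlap in 9.49% (higher with metformin) and 9.63% (lower). Igkv12 genes held at most 7.93% of kappa V counts with PBS and at least 8.22% with metformin, Igkv10 genes 4.81% to 8.16% and 3.96% to 4.58%, and Ighv14 genes 4.37% to 6.64% and 1.84% to 4.27% of heavy chain V counts. The other 3 were the lambda V genes, each a family of its own, whose shares sum to one total and so are not independent. Iglv1 held 80.9%, 78.1% and 66.3% of lambda V counts in the PBS libraries, against 88.8%, 93.8% and 86.7% in metformin 1, 2 and 3, with Iglv2, its near copy, taking most of the rest. Iglv1 itself overlapped, at 71.9, 23.6 and 7.58 CPM with PBS and 284, 88.9 and 29.6 CPM with metformin (log2 fold change 1.97, SE 0.92; edgeR adjusted p = 0.502). Iglv2 measured 3.13 to 14.1 CPM with PBS and 3.72 to 30.3 CPM with metformin, and Iglv3 0.725 to 2.91 CPM and 0.709 to 5.69 CPM. The J genes, all in the heavy chain locus, held 0.0649% to 0.188% of immunoglobulin counts. Ighj2 measured 2.02, 0.534 and 0.297 CPM with PBS and 7.66, 2.04 and 0.876 CPM with metformin, and Ighj4 0.287 to 2.10 CPM and 0.745 to 4.47 CPM.

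Gene by gene, 170 of the 190 members passed the filter on low counts and 0 of these passed edgeR's test over all 15527 genes (0% of all genes tested passed; smallest adjusted p among the members = 0.210). At an unadjusted p under 0.05, edgeR gave 32 members higher with metformin, where 5.29% of all genes tested were so called, and 0 lower (5.08% of all genes). With 1 library left out, the number higher was lowest without metformin 1, at 20 of 172 members, where 669 of all 16212 genes were so called. It was highest without PBS 1, at 98 of 176 members (726 of 16049 genes). Without metformin 3 it was 80 of 181 members (787 of 16058 genes). With the replicate number as a block edgeR called 3 members, where it called 0.0193% of all genes tested. DESeq2 called 9 members, all V genes and all higher, where it called 0.947% of all genes tested higher: Ighv5-9-1, Igkv8-30, Igkv19-93, Ighv1-42, Igkv14-111, Ighv1-55, Igkv12-46, Igkv4-72 and Ighv6-3. Without the filter the log2 fold change was above 0 in 174 of the 190 members (51.8% of all genes so fitted), with a median of 1.36 against 0.02 over all genes. With the filter it was above 0 in 158 of 170 members (50.9% of all genes), with a median of 1.37. Without metformin 1 the median was 0.54 (121 of 172 members above 0, against 8201 of 16212 genes). Without PBS 1 it was 2.45 (169 of 176 members above 0, against 7920 of 16049 genes). The members are not independent of each other: 122 of the 175 V genes were highest in metformin 1, and 91 were lowest in PBS 3. Groups that did not overlap, higher with metformin, were found in 21 of the 170 members, 12.4%, against 9.49% of all genes tested; 0 members had all metformin libraries lower (9.63% of all genes).

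**Figure D4:**
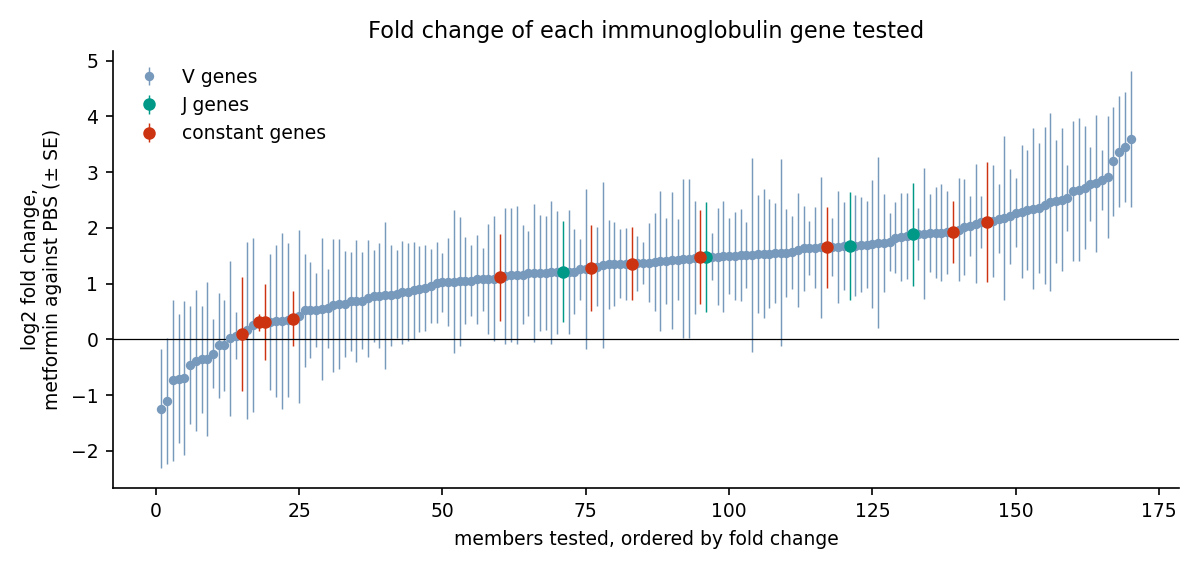
Log2 fold change of each of the 170 immunoglobulin genes tested, metformin against PBS, with edgeR's standard error, ordered by size. The values are above 0 in 158 genes with long error bars, and Ighm, with a standard error of 0.15, is the most precise of the constant region genes.

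Ighv5-9-1, a heavy chain V gene, had the smallest p, with 1.33, 0.944 and 1.45 CPM with PBS and 17.1, 4.46 and 5.61 CPM with metformin (log2 fold change 2.86, SE 0.54; edgeR adjusted p = 0.210). Igkv8-30 measured 12.5, 9.85 and 3.89 CPM with PBS and 52.1, 41.3 and 19.3 CPM with metformin (log2 fold change 2.11, SE 0.47; edgeR adjusted p = 0.263). The groups did not overlap in either gene, nor in the kappa V genes Igkv12-46 (2.83 to 10.4 CPM under PBS and 12.8 to 45.0 CPM with metformin) and Igkv4-72 (3.20 to 4.72 CPM and 7.76 to 56.6 CPM). By DESeq2 the adjusted p was 2.96e-05 for Ighv5-9-1, 0.000144 for Igkv8-30 and 0.0355 for both Igkv12-46 and Igkv4-72. Of the V genes with the most counts, Igkv6-23 (6.79 to 25.8 CPM under PBS and 26.8 to 66.8 CPM with metformin) and Ighv1-64 (2.51 to 12.5 CPM and 21.1 to 66.7 CPM) did not overlap either. Igkv1-117, Igkv1-110, Igkv1-135, Igkv4-91, Ighv9-3, Ighv1-72, Ighv1-59 and Ighv1-53 overlapped, with log2 fold changes of 0.92 to 2.46 and standard errors of 0.66 to 1.60. On the lower side the smallest p belonged to Ighv7-4, at 0.164 to 0.626 CPM with PBS and 0 to 0.459 CPM with metformin (log2 fold change -1.24, SE 1.07; edgeR adjusted p = 0.694). Ighv10-3 followed, with 41.3, 5.83 and 0.791 CPM with PBS and 14.5, 4.01 and 3.68 CPM with metformin, and its log2 fold change of -1.11 (SE 1.13) became 1.16 without PBS 1. Igkv8-16 and Ighv14-2 also had negative log2 fold changes (-0.71 and -0.74), which became 0.42 and 3.81 without PBS 1.

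Other genes of the pathway, from lists chosen with earlier results of these data known, showed no call either. Of 20 genes of B cell receptor signalling, among them Syk, Prkcb and Plcg2, which NK cells also use, 0 of 20 passed edgeR (median log2 fold change -0.05), 0 at an unadjusted p under 0.05. Of 18 genes of V(D)J recombination and class switching, 15 were tested and 0 passed (median -0.18); 1 was higher and 3 were lower at an unadjusted p under 0.05, where 5.29% of all genes tested were higher and 5.08% lower. Rag1, a subunit of the recombinase, had 0 reads in all 6 libraries, and Rag2 measured 0.165 to 0.452 CPM with PBS and 0 to 0.131 CPM with metformin. Dntt, which adds bases at V(D)J junctions, measured 4.86, 2.05 and 2.44 CPM with PBS and 0.963, 1.25 and 0.614 CPM with metformin (log2 fold change -1.72; edgeR adjusted p = 0.314). Among 13 receptors and transporters of immunoglobulin, 10 were tested and 0 passed (median 0.09). At an unadjusted p under 0.05 edgeR gave 2 higher and 0 lower (5.29% and 5.08% of all genes tested). Their sum did not overlap, at 3883 to 4220 CPM with PBS and 4604 to 6047 CPM with metformin. Most of it was B2m (2616 to 2975 CPM and 3253 to 4194 CPM). Fcer1g did not overlap either (939 to 1003 CPM and 1066 to 1556 CPM). Fcgr3, the IgG receptor CD16 of NK cells, measured 104 to 111 CPM with PBS and 103 to 141 CPM with metformin, and Pigr, which carries IgA across epithelia, 1.44 to 18.7 CPM and 0.919 to 7.67 CPM.

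Sums over the markers of other cell types in these libraries did not share the order of Igha. The sum of 14 macrophage and Kupffer cell markers was highest in metformin 3 (692 CPM, against 239 to 403 CPM in the other 5), with Clec4f, a defining Kupffer cell lectin, at 0 to 0.570 CPM. Sums of 10 plasmacytoid dendritic cell markers were 1165 to 1298 CPM with PBS and 878 to 1092 CPM with metformin, mostly Irf8, which NK cells also express. The 12 neutrophil markers summed to 22.8 to 165 CPM with PBS and 16.0 to 50.3 CPM with metformin. Single neutrophil genes, such as Ngp (0 to 4.99 CPM) and S100a8 (0.396 to 6.70 CPM), were highest in metformin 1 and lowest in PBS 3, as Igha was. Others were not, such as Mpo, which gave 130 CPM of the sum in PBS 1. The 9 erythroid genes summed to 71.3 to 151 CPM with PBS and 66.2 to 170 CPM with metformin. None of the 15 NK, 15 T cell, 12 macrophage, 9 plasmacytoid dendritic cell, 10 neutrophil, 17 hepatocyte or 7 erythroid genes tested passed edgeR over all genes. At an unadjusted p under 0.05 edgeR gave, in this order, 3, 7, 6, 2, 0, 1 and 0 of them higher with metformin (5.29% of all genes tested). It gave 2, 0, 1, 1, 1, 0 and 0 lower (5.08% of all genes tested).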

How the data were processed

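Estimated counts and TPM per gene for 6 libraries, which the authors deposited in a single table, were used. Per the submitters' processing notes the tool was DRAGEN, with no version, and the builds named are GRCm39 and mm10, with no role. Strand, filters and the handling of shared reads are not stated in the sources at hand. The authors' deposited estimated counts are not normalized, and their deposited TPM sum to the same total in each library and keep no depth. All 190 members were found in GENCODE M21 by identifier, 0 of them at the same position, so coordinates are the table's own. Per the labels' protocols, RNA came from a column kit and libraries from SMART-seq mRNA chemistry, with PCR, so counting limits cover counting error only.

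Counts were rounded and tested with edgeR 4.0.16 in R 4.3.3 (glmQLFit, glmQLFTest, TMM, filterByExpr, no covariate) over 15527 genes, with Benjamini-Hochberg adjustment at 0.05. DESeq2 1.42.0, limma-voom (limma 3.58.1), other scalings, filters, the replicate number as a block and each library left out were tried. The test was checked on simulated counts with 200 changed genes and a spread common to all genes. That check does not measure its power for genes that vary as widely as the immunoglobulin genes. Shares use unrounded counts. Members, lists and alternatives were chosen with earlier results of these data known. Of the 12 value columns 0 were left without a sample. Named members are all constant region genes, the 5 V genes with the most counts per locus, the 2 J genes with the most, and the 4 members with the smallest edgeR p in each direction; list genes were named by highest mean CPM (up to 6 per list), and others were chosen after their values were seen.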

Additional observations from a re-analysis of the deposited data

How the results depend on the processing

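The count of 0 members past an adjusted p of 0.05 held in edgeR with 3 other scalings, without immunoglobulin rows in the scaling, without the filter, with a filter of 5 CPM, in limma-voom and with each library left out (0 to 0). DESeq2 called 9 members. With the replicate number as a block edgeR called 3 (Iglc1, Iglv1 and Igkv8-30, adjusted p = 0.0117, 0.0117 and 0.0155), which were all the genes it called (0.0193% of genes tested). The libraries share only a number: deviations of same-numbered libraries from their group means correlated at 0.171, 0.0757 and 0.172 across genes, and PBS 2 correlated slightly better with metformin 1 (0.0764). The cause of these differences was not tested. The kappa share, 1.52 percentage points higher with metformin by constant genes, was -1.89 by V genes. The V genes detected, 22.7 more with metformin, were -2.79 at the common number of V reads.

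With 1 library left out the log2 ratio of the immunoglobulin share ranged from 0.56 to 1.96. In percentage points the difference ranged from 3.14 to 28.3 for IgA, from -27.4 to -4.06 for IgM, from 0.13 to 1.94 for IgG, from -2.87 to -0.42 for IgD and from 0.31 to 3.27 for kappa; the V gene difference ranged from 10.7 to 35.5, the effective number from -7.35 to -1.33, and the log2 ratio of the plasma cell sum from 0.19 to 0.45 and of the B cell sum from 0.014 to 0.37. Of 34 named members 31 kept their sign in every setting with all libraries. The sign turned for Ighv10-3 (0.13) and Ighv14-2 (2.68) and Ighg3 (-0.53) in limma-voom, and with the block for Ighv14-2 (1.91) and Ighg3 (-0.37). Leaving out 1 library turned the sign of 11 named members, whose log2 fold changes then ranged from -0.48 to 0.71 (Iglc2), -1.13 to 5.07 (Igkv4-91), -0.25 to 0.75 (Ighd), -0.30 to 2.40 (Ighv9-3), -0.45 to 4.56 (Ighv1-59), -2.05 to 1.16 (Ighv10-3), -0.78 to 1.55 (Iglv2), -2.04 to 0.81 (Ighg3), -1.32 to 3.81 (Ighv14-2), -0.96 to 1.59 (Iglv3) and -1.92 to 0.42 (Igkv8-16). The sign turned without metformin 1 for 8 of them, without PBS 1 for Ighd, Ighv10-3, Ighv14-2 and Igkv8-16, and without PBS 2 for Ighg3.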

Other observations

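Immunoglobulin pseudogene rows, which the report does not use, held few reads: 122 of 164 had none in any library, and together they had 56.7, 32.2 and 16.1 estimated counts in the PBS libraries, and 122, 56.6 and 48.4 counts in those from metformin. The rows of immunoglobulin type under the sum of 30 held 84.8, 23.0 and 39.7 counts in the PBS libraries, and 144, 122 and 27.0 counts in those from metformin.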
